A study of Mus musculus with 8 samples.

Results

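Type I interferon-stimulated genes were followed through the immune cells of B16-OVA melanomas. The list holds 39 genes taken by symbol, chosen by what they are known for, but with earlier results of these data known. Of these, 38 were found among the 27998 genes of the count table. Mx2 was not analysed here. CD45+ cells were sorted from the tumors with enrichment for CD8+ T cells and profiled by 10x Genomics 5′ single-cell RNA sequencing, in which a unique molecular identifier (UMI) marks 1 captured RNA molecule. There were 8 libraries. By the Methods, tumors of 5 mice were pooled for each condition on days 5 and 12. Day 26 is named in the design text of the series and not in that part of the Methods.

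All hosts were C57BL/6 mice, aged 7 weeks at tumor injection, bearing B16-OVA, a melanoma line that makes the model antigen ovalbumin, and none was lymphodepleted. In adoptive cell therapy (ACT) they received OT1 CD8+ T cells, which recognize ovalbumin, in a pair of transfers. By the Methods, sampling days 5 and 12 count from cell transfer, which began on day 12 after tumor injection. The non-treated library, labelled day 5, had no transfer. Untransduced ACT, with OT1 cells that carried no added gene, was sampled on days 5 and 12. PD1d/IL-2v ACT, sampled on day 12, used OT1 cells that secreted PD1d, a PD-1 ectodomain fused to an antibody Fc, and IL-2v, an IL-2 variant that does not engage CD25. PD1d/IL-33 ACT, also sampled on day 12, used cells that secreted PD1d and the alarmin IL-33. PD1d/IL-2v/IL-33 ACT was an equal mix of both engineered products and was sampled on days 5, 12 and 26. With 1 library per condition and day, no difference has a replicate check, so no test or P value is given. All intervals are 95% intervals of counting error alone, and they do not cover differences between mice or amplification. Those of levels and ratios also leave out the uneven spread of member UMIs over cells, which is described below.

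Type I interferons bind the IFNAR1 and IFNAR2 chains present on nearly all cells. The kinases JAK1 and TYK2 then phosphorylate STAT2, which with IRF9 is part of a complex that binds interferon-stimulated response elements near its target genes. The products detect viral RNA, block its translation or replication, tag proteins with ISG15 and feed back on the pathway. Many of these genes also respond to interferon gamma, the type II interferon made by T and NK cells.

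The core of the interferon-stimulated response element was common in the sequences around the start sites of the members. In the RefSeq promoter table for GRCm38.p6, which gives 250 bases before to 50 after a start, 28 of the 38 members had an entry. Of these, 17 (60.7%) held the core, GAAA, any 2 bases and GAAA again, on either strand, against 3.99% of the 27025 genes in the table, counted the same way with a gene holding the core if any of its promoters did (3.44% of the 32851 promoters, all of the same length). The core of the gamma-activated site, TTCNNNGAA, which reads the same on both strands, was held by 5 of the 28 (17.9%) and by 9.55% of all genes (8.30% of promoters). Usp18, Mx1, Zbp1, Oas2, Dhx58, Pydc3, Pydc4, Rtp4, Ifi27l2a and Parp14 had no entry. A match is a description of letters and not a shown binding site. Irf7, Isg20, Ifi35, Ifit2 and Oasl2 were among the members with an entry and no match to the response element core. The windows of 6 members with a match are given 5′ to 3′ in the direction of the gene. Matches to the response element core, on either strand, are in capitals.
Isg15: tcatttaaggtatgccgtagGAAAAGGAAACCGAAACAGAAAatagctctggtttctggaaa
Bst2: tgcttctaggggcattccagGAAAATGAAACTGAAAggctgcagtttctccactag
Rsad2: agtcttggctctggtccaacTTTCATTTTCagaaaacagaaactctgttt
Ifit3: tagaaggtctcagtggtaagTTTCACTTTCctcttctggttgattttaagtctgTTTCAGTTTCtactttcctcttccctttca
Ifit3b: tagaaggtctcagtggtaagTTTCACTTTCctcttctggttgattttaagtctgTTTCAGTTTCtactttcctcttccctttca
Ifit1: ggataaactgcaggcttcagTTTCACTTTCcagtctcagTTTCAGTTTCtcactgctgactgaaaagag

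The Isg15 window lies at chr4:156200855-156200916, minus strand, -98 to -37 bases from the annotated start, and holds 3 overlapping matches. Bst2 has 2 at chr8:71537567-71537622, minus strand, -150 to -95 bases from the annotated start, and Rsad2 has 1 at chr12:26456543-26456592, minus strand, -140 to -91 bases from the annotated start. Ifit1 has 2 at chr19:34640765-34640833, plus strand, -124 to -56 bases from the annotated start. Ifit3 (chr19:34583353-34583436, plus strand, -176 to -93 bases from the annotated start) and Ifit3b (chr19:34607749-34607832, plus strand, -208 to -125 bases from the annotated start) have 2 each, and their windows were identical at 84 of 84 bases. Ifit3 and Ifit3b are thus near copies of each other upstream, and reads of such paralogs, also among Ifit1bl1, Pydc3, Pydc4, the Oas genes and the Slfn genes, may have been split or lost between them in the counting.

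Cells were kept by the Methods' filter for this experiment, which left 12828 of 15700 barcodes, and gated by raw UMIs of marker genes into 5053 CD8 T, 1194 CD4 T, 2468 NK, 1332 myeloid (monocyte and macrophage) and 170 dendritic cells (DCs). Libraries held 1387032 to 24917112 UMIs. Most but not all marker genes left out of the gates followed the names. Lyz2 stood at 9222 UMIs per 1000000 UMIs (CPM) in the myeloid gate and 15.6 in the CD8 T gate, Gzma at 9307 in the NK gate and 922 in the CD8 T gate, Cd5 at 378 CPM in the CD4 T gate and 0.789 in the NK gate, and Zbtb46 at 53.6 in the DC gate and 1.92 to 5.91 elsewhere. Against the names, Itgax of the DC list was higher in the NK (138 CPM) and myeloid gates (111 CPM) than in the DC gate (99.9 CPM), Irf8 of that list stood at 1205 CPM in the NK and 1303 in the DC gate, and Ly6c2 and Fcer1g of the myeloid list stood at 942 CPM in the CD8 T and 2370 CPM in the NK gate, against 1165 and 3756 CPM in the myeloid gate. The CD8 T gate joins transferred and host cells. The level of 6 genes from the myeloid list, Fcer1g among them and Ly6c2 left out, was summed in the CD8 T gate. It was lowest, at 42.1 CPM, in PD1d/IL-2v/IL-33 ACT on day 26. The highest were PD1d/IL-2v ACT with 252 CPM and PD1d/IL-2v/IL-33 ACT on day 12 with 270.0 CPM. Pooled over libraries, Fcer1g stood at 106 CPM in this gate and Lyz2, the next highest of the 6, at 15.6. The paper lists Fcer1g among genes raised in its cytotoxic cluster of tumor CD8 T cells over its exhausted one. The sum is therefore not a measure of myeloid RNA alone, and its part in the results was not tested. Levels are not scaled by gene length, since the UMI is read at the 5′ end of a transcript. The non-treated and the untransduced day 12 libraries were small, with 76 and 41 CD8 T cells. Of the barcodes, 286 share a sequence with a barcode of another library. The deposited list of libraries gives each a processing code, whose meaning is not given in the sources used here. The code is shared by 3 pairs, namely PD1d/IL-2v/IL-33 with untransduced ACT on day 12, PD1d/IL-33 with PD1d/IL-2v ACT, and the day 26 with the non-treated library. In every comparison between libraries of different codes, code and condition cannot be told apart.

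The members together were most abundant in myeloid cells and least abundant in NK cells, and in CD8 T cells their sum was lowest in PD1d/IL-2v/IL-33 ACT on day 12. Summed over 38 members, CD8 T cells held 2558 CPM in non-treated tumors, 2282 and 2045 in the day 5 libraries of untransduced and of PD1d/IL-2v/IL-33 ACT, 1513 in untransduced, 2163 in PD1d/IL-2v, 1807 in PD1d/IL-33 and 1265 in PD1d/IL-2v/IL-33 ACT on day 12, and 2363 in PD1d/IL-2v/IL-33 ACT on day 26. PD1d/IL-2v/IL-33 ACT on day 12 was thus below all other libraries, but with each cell thinned to 2000 UMIs its log2 ratio to untransduced ACT on day 12 was 0.0081, so that the order of these 2 depended on the processing. The same condition on day 26 was second to non-treated tumors only. These libraries at the high end share a processing code, as do PD1d/IL-2v/IL-33 and untransduced ACT on day 12 at the low end. The part of the code in this order was not tested. Neighbours in this order did not overlap in their counting intervals, the closest being day 26 of PD1d/IL-2v/IL-33 ACT (2339 to 2388 CPM) and untransduced ACT on day 5 (2240 to 2325 CPM). Because these intervals leave out the spread of member UMIs over cells, a gap of this size does not set libraries apart. One gene weighed heavily on the sum: Ifi27l2a, which encodes a small hydrophobic protein, held 33.2% of all member UMIs. Without it the 37 other members summed to 1696 CPM in non-treated tumors, 1297 and 1035 in the day 5 libraries of untransduced and of PD1d/IL-2v/IL-33 ACT, 1028 in untransduced, 1454 in PD1d/IL-2v, 1209 in PD1d/IL-33 and 924 in PD1d/IL-2v/IL-33 ACT on day 12, and 1766 in PD1d/IL-2v/IL-33 ACT on day 26. Then PD1d/IL-2v/IL-33 ACT on day 12 (901 to 947 CPM) overlapped untransduced ACT on day 12 (909 to 1157 CPM) at the low end, and day 26 of PD1d/IL-2v/IL-33 ACT became the highest, with an interval (1745 to 1788 CPM) that overlapped that of non-treated tumors (1577 to 1822 CPM).

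**Figure D1:**
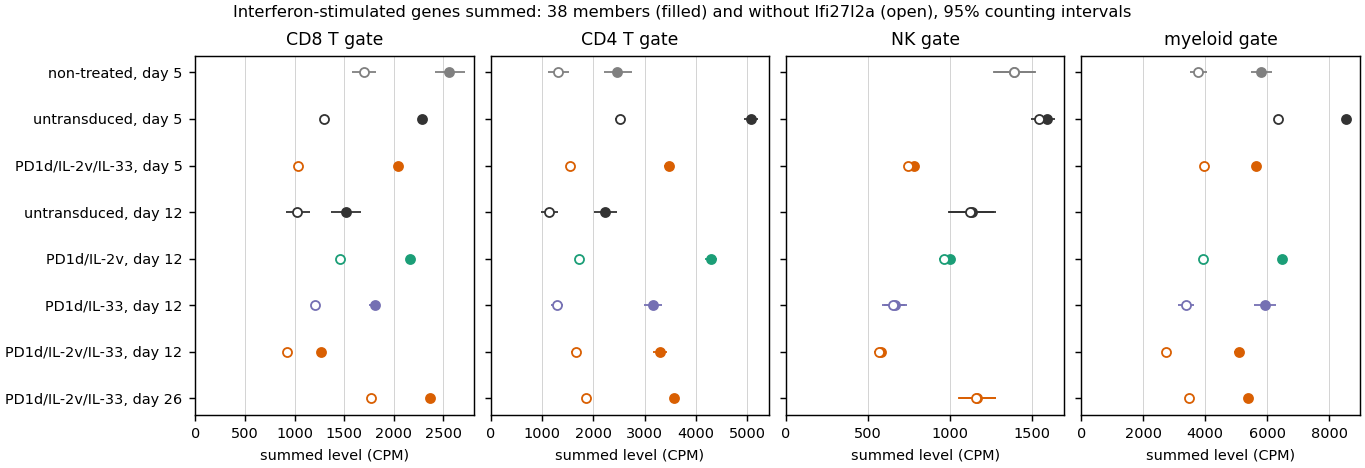
Summed level (CPM) of the interferon-stimulated genes in each library, for CD8 T, CD4 T, NK and myeloid gated cells; filled points are 38 members, open points leave out Ifi27l2a, and bars are 95% counting intervals. PD1d/IL-2v/IL-33 ACT on day 12 is lowest in CD8 T (1265 CPM) and NK cells (581 CPM), and untransduced ACT on day 5 is highest in CD4 T, NK and myeloid cells.

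NK cells summed to 1390.3 CPM in non-treated tumors, 1589 and 778 in the day 5 libraries of untransduced and of PD1d/IL-2v/IL-33 ACT, 1131 in untransduced, 999 in PD1d/IL-2v, 665 in PD1d/IL-33 and 581 in PD1d/IL-2v/IL-33 ACT on day 12, and 1162 in PD1d/IL-2v/IL-33 ACT on day 26. In CD4 T cells the sum was 2468 CPM in non-treated tumors, 5072 and 3472 in the day 5 libraries of untransduced and of PD1d/IL-2v/IL-33 ACT, 2236 in untransduced, 4298 in PD1d/IL-2v, 3158 in PD1d/IL-33 and 3296 in PD1d/IL-2v/IL-33 ACT on day 12, and 3574 in PD1d/IL-2v/IL-33 ACT on day 26. Myeloid cells, of which untransduced ACT on day 12 held too few to be given, summed to 5807 CPM in non-treated tumors, 8561 and 5654 in the day 5 libraries of untransduced and of PD1d/IL-2v/IL-33 ACT, 6471 in PD1d/IL-2v, 5924 in PD1d/IL-33 and 5097 in PD1d/IL-2v/IL-33 ACT on day 12, and 5389 in PD1d/IL-2v/IL-33 ACT on day 26. Untransduced ACT on day 5 was therefore the highest library in 3 of these 4 gates, and only in CD8 T cells did non-treated tumors and day 26 lie above it.

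Cell types were compared within a library, so that conditions and processing code were shared. On the log2 scale after 10 CPM were added to each level, as in every ratio below (given with its counting interval), the sum was higher in myeloid than in CD8 T cells in all 7 libraries compared, by 1.18 to 2.00, and 25 of the 38 members were higher in all 7. The difference was widest for Oasl2, an OAS-like protein (median 3.64), Isg15 (2.63), Slfn5 (2.62) and Rsad2 (2.47). Pydc3, a PYHIN family gene, went the other way in all 7 libraries (median -1.51). How many of all genes were higher or lower in all 7 libraries was not counted. The sum in CD8 T cells was above that in NK cells in all 8 libraries, by 0.42 to 1.43. Ifi27l2a was higher in CD8 T cells by a median of 4.61, and without it the ratio of CD8 T to NK cells lay between -0.25 and 0.88, above 0 in 6 libraries and below 0 in the 2 untransduced ones. Ddx58, which encodes the RNA sensor RIG-I, was the 1 member with its highest pooled level in NK cells (59.0 CPM, against 39.04 in CD8 T cells).

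Among the IFIT proteins, which bind foreign RNA and halt its translation, Ifit1 and Ifit3 gave the most UMIs. Ifit3 in CD8 T cells stood at 75.0 CPM in non-treated tumors, 27.7 and 10.96 in the day 5 libraries of untransduced and of PD1d/IL-2v/IL-33 ACT, 26.3 in untransduced, 39.5 in PD1d/IL-2v, 19.1 in PD1d/IL-33 and 9.46 in PD1d/IL-2v/IL-33 ACT on day 12, and 72.7 in PD1d/IL-2v/IL-33 ACT on day 26. Ifit1 stood at 54.6 CPM in non-treated tumors, 23.4 and 18.7 in the day 5 libraries of untransduced and of PD1d/IL-2v/IL-33 ACT, 7.53 in untransduced, 29.0 in PD1d/IL-2v, 9.54 in PD1d/IL-33 and 12.7 in PD1d/IL-2v/IL-33 ACT on day 12, and 47.4 in PD1d/IL-2v/IL-33 ACT on day 26. Both genes were highest in non-treated tumors and on day 26, and the lowest libraries were PD1d/IL-2v/IL-33 ACT on day 12 for Ifit3 and the small untransduced day 12 library for Ifit1. Ifit2, Ifit3b and Ifit1bl1 ranged over 8.18 to 26.3 CPM, 1.02 to 15.9 CPM and 7.87 to 28.0 CPM. In myeloid cells Ifit1 stood at 139 to 196 CPM in the 3 libraries of day 5 and at 0 to 54.4 CPM in the 4 later ones that had enough cells. The non-treated library of day 5 had 22 myeloid cells, of which 2 held 49.4% of the thinned member UMIs other than Ifi27l2a. Their part was not tested. How many of all genes split the same way by day was not counted. The myeloid sum of all members did not, with 5654 to 8561 CPM on day 5 and 5097 to 6471 CPM later. In NK cells Ifit1 reached 47.6 CPM on day 26 and lay between 0 and 15.4 CPM in the other 7 libraries.

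The ISG15 system was led by Isg15, the ubiquitin-like protein itself. In CD8 T cells it stood at 118 CPM in non-treated tumors, 89.4 and 56.5 in the day 5 libraries of untransduced and of PD1d/IL-2v/IL-33 ACT, 22.6 in untransduced, 104 in PD1d/IL-2v, 60.4 in PD1d/IL-33 and 66.7 in PD1d/IL-2v/IL-33 ACT on day 12, and 107 in PD1d/IL-2v/IL-33 ACT on day 26. Its level in myeloid cells was several times higher, at 531 CPM in non-treated tumors, 1448 and 795 in the day 5 libraries of untransduced and of PD1d/IL-2v/IL-33 ACT, 715 in PD1d/IL-2v, 419 in PD1d/IL-33 and 464 in PD1d/IL-2v/IL-33 ACT on day 12, and 583 in PD1d/IL-2v/IL-33 ACT on day 26. Untransduced ACT on day 5 was the highest myeloid library, and untransduced ACT on day 12 the lowest CD8 T library, although only 6 UMIs lie behind that last value. Herc6, the mouse ligase that attaches ISG15 to proteins, ranged over 15.4 to 36.4 CPM in CD8 T cells. Usp18, which removes ISG15 and restrains IFNAR2 signaling, ranged over 6.82 to 36.5 CPM and was highest in PD1d/IL-2v ACT.

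Of the other antiviral effectors, Bst2, the tetherin that holds budding virus on the membrane, varied little in CD8 T cells, from 120.4 to 172 CPM. Zbp1, a sensor of Z-form nucleic acid, stood at 132 CPM in non-treated tumors, 87.2 and 91.2 in the day 5 libraries of untransduced and of PD1d/IL-2v/IL-33 ACT, 90.3 in untransduced, 109 in PD1d/IL-2v, 88.6 in PD1d/IL-33 and 64.9 in PD1d/IL-2v/IL-33 ACT on day 12, and 147 in PD1d/IL-2v/IL-33 ACT on day 26. For Zbp1 PD1d/IL-2v/IL-33 ACT thus gave the lowest library on day 12 and the highest on day 26. Isg20, an RNA exonuclease, ranged over 30.1 to 126 CPM. Rsad2 (viperin), its neighbour Cmpk2 and the GTPase gene Mx1 were low in CD8 T cells, with at most 10.495, 11.5 and 19.99 CPM. In myeloid cells Rsad2 reached 338, 335 and 234 CPM in the day 5 libraries and 54.0 to 82.3 CPM in the later ones, with the limits named for myeloid Ifit1.

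The OAS genes, most of whose proteins make the second messenger that activates RNase L, were scarce in T cells. Oas1a and Oasl2 gave the most UMIs and ranged over 7.53 to 24.99 CPM and 0 to 11.4 CPM in CD8 T cells, against 83.1 to 183 CPM and 118 to 210.5 CPM in myeloid cells. Oas2 did not exceed 1.61 CPM in CD8 T cells. Oas1a and Oas3 differed in their order over the libraries from most members: Oas1a was highest in PD1d/IL-33 ACT (24.99 CPM), and Oas3 was similar on days 5 and 12 of PD1d/IL-2v/IL-33 ACT (24.7 and 24.6 CPM) and lower on day 26 (17.5 CPM).

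The RNA sensors are RIG-I, MDA5 (Ifih1), LGP2 (Dhx58) and Ddx60. Ddx58 in CD8 T cells stood at 61.4 CPM in non-treated tumors, 39.2 and 31.5 in the day 5 libraries of untransduced and of PD1d/IL-2v/IL-33 ACT, 26.3 in untransduced, 45.3 in PD1d/IL-2v, 35.4 in PD1d/IL-33 and 23.6 in PD1d/IL-2v/IL-33 ACT on day 12, and 46.0 in PD1d/IL-2v/IL-33 ACT on day 26. Ifih1 ranged over 3.76 to 13.7 CPM in CD8 T and 43.5 to 194 CPM in myeloid cells. In the latter the 3 day 5 libraries gave 111 to 194 CPM and the later 4 gave 43.5 to 56.1 CPM, with the same limits as for Ifit1.

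Of the transcription factors, Irf7 amplifies the induction of interferon genes, and Irf9 and Stat2 are parts of the factor that reads the response element. Irf7 in CD8 T cells stood at 70.5 CPM in non-treated tumors, 70.8 and 34.5 in the day 5 libraries of untransduced and of PD1d/IL-2v/IL-33 ACT, 18.8 in untransduced, 71.0 in PD1d/IL-2v, 42.3 in PD1d/IL-33 and 26.8 in PD1d/IL-2v/IL-33 ACT on day 12, and 93.5 in PD1d/IL-2v/IL-33 ACT on day 26. In NK cells it stood at 182 CPM in non-treated tumors, 154 and 39.2 in the day 5 libraries of untransduced and of PD1d/IL-2v/IL-33 ACT, 62.3 in untransduced, 58.7 in PD1d/IL-2v, 43.6 in PD1d/IL-33 and 37.9 in PD1d/IL-2v/IL-33 ACT on day 12, and 75.6 in PD1d/IL-2v/IL-33 ACT on day 26. Irf7 was thus lowest among the larger CD8 T libraries in PD1d/IL-2v/IL-33 ACT on day 12 and highest on its day 26, whereas its highest NK libraries were the non-treated and untransduced ones of day 5. Irf9 and Stat2 moved over a narrower range in CD8 T cells, with 31.9 to 75.0 CPM and 15.1 to 23.0 CPM.

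Phf11b and Pydc4 gave the most UMIs among the Schlafen, PYHIN-like and PHD finger genes. Pydc4 stood at 79.6 CPM in non-treated tumors, 44.6 and 38.7 in the day 5 libraries of untransduced and of PD1d/IL-2v/IL-33 ACT, 64.0 in untransduced, 62.3 in PD1d/IL-2v, 59.97 in PD1d/IL-33 and 23.0 in PD1d/IL-2v/IL-33 ACT on day 12, and 83.1 in PD1d/IL-2v/IL-33 ACT on day 26 in CD8 T cells. Pydc3 had similar levels, with 23.0 CPM in PD1d/IL-2v/IL-33 ACT on day 12 and 84.4 CPM on day 26. Phf11b ranged over 41.2 to 90.9 CPM, and its lowest library was the same. Slfn8 was the flattest of the group, with 23.3 to 30.1 CPM, and Slfn5 did not exceed 11.3 CPM in CD8 T cells but reached 37.1 to 146 CPM in myeloid cells.

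The remaining members have assorted roles. Ifi27l2a in CD8 T cells stood at 862 CPM in non-treated tumors, 985 and 1009.6 in the day 5 libraries of untransduced and of PD1d/IL-2v/IL-33 ACT, 486 in untransduced, 708 in PD1d/IL-2v, 598 in PD1d/IL-33 and 341 in PD1d/IL-2v/IL-33 ACT on day 12, and 597 in PD1d/IL-2v/IL-33 ACT on day 26. Rtp4, a chaperone of receptors with antiviral activity, stood at 86.4 CPM in non-treated tumors, 50.3 and 46.4 in the day 5 libraries of untransduced and of PD1d/IL-2v/IL-33 ACT, 41.4 in untransduced, 69.1 in PD1d/IL-2v, 43.2 in PD1d/IL-33 and 22.7 in PD1d/IL-2v/IL-33 ACT on day 12, and 85.1 in PD1d/IL-2v/IL-33 ACT on day 26. Both were lowest in PD1d/IL-2v/IL-33 ACT on day 12, but Ifi27l2a was highest in the day 5 libraries and Rtp4 in non-treated tumors and on day 26. The non-treated level of Rtp4 rests on the 76 cells whose uneven spread is given above. Trim30a, a restraint on innate signaling, ranged over 37.6 to 84.1 CPM. Ifi35, Xaf1 and Parp14 ranged over 42.7 to 88.7 CPM, 27.7 to 62.0 CPM and 43.8 to 65.5 CPM. Ifi44 was the rarest member, with 206 UMIs over all 12828 cells.

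**Figure D2:**
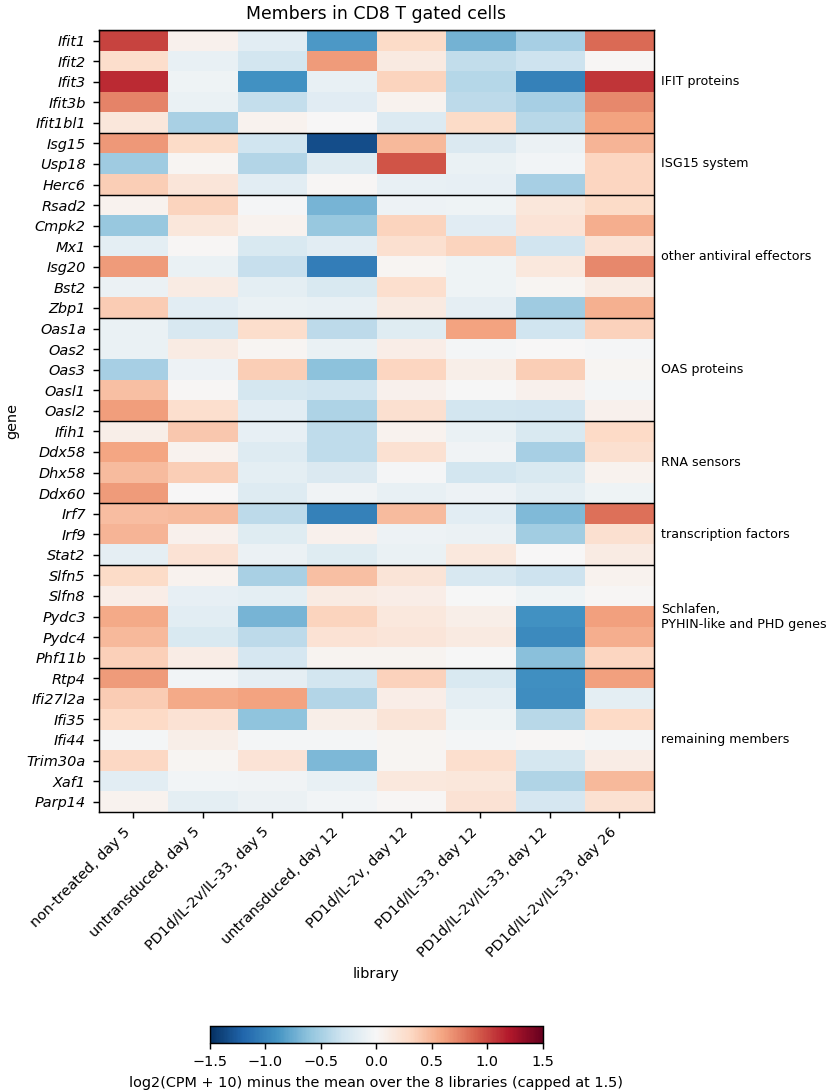
Level of each of the 38 members (rows, grouped by role) in CD8 T gated cells of each library (columns), as log2(CPM + 10) minus the member's mean over the 8 libraries. The column of PD1d/IL-2v/IL-33 ACT on day 12 is blue for Ifit3, Pydc3, Pydc4, Rtp4 and Ifi27l2a, which stand at 9.46, 23.0, 23.0, 22.7 and 341 CPM there, and the day 26 column is red for Ifit3, Rtp4 and Irf7, which stand at 72.7, 85.1 and 93.5 CPM.

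Untransduced ACT was set against non-treated tumors on day 5, which compares transfer of unmodified OT1 cells with no transfer. In CD8 T cells the sum was 2282 against 2558 CPM, a log2 ratio of -0.16 (-0.25 to -0.075). Ifit3, Ifit1 and Isg20 had the lowest ratios, with -1.18 (-1.65 to -0.68), -0.95 (-1.48 to -0.40) and -0.74 (-1.13 to -0.33). Usp18, Oas3 and Stat2 had the highest, between 0.35 and 0.56, with intervals that included 0. Of 29 members with at least 50 UMIs in both libraries together, 1 was lower by 2-fold or more, against 0.501% of the 7589 genes compared, and 0 were higher, against 1.52%. The median of the members was -0.20 and that of all genes 0.019. The non-treated level rests on 76 CD8 T cells. Of these, 4 held 40.1% of the thinned member UMIs other than Ifi27l2a, and their part was not tested.

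The size and direction in CD8 T cells depended on the processing, with a reversal to 0.0174 under the cell filter of a later experiment of the study. The ratio kept its sign but lay near 0 after thinning (-0.0192) and without the 5% of cells with the highest member share (-0.0016). Without Ifi27l2a it was further from 0 (-0.38, -0.49 to -0.27). In the other gates the sum was higher in untransduced ACT. In CD4 T cells the sum was 5072 against 2468 CPM (1.04, 0.87 to 1.205), with only 21 cells behind the non-treated value. There 9 of 18 members were higher by 2-fold or more, against 5.2% of genes, led by Parp14, a mono-ADP-ribosyltransferase (2.32), Ifit3 (2.23) and Ifit1 (2.09). Ifit1 had 1 UMI in the non-treated and 66 in the untransduced cells. The other 20 members had under 50 UMIs in both libraries together. Of the 175 untransduced CD4 T cells, 9 held 40.5% of the thinned member UMIs other than Ifi27l2a, and their part was not tested. The median CD4 T cell held 3 such UMIs in each of these libraries. In myeloid cells, with 22 non-treated cells, the ratio was 0.56 (0.47 to 0.65), and 10 of 35 members were higher by 2-fold or more, against 6.93% of genes, with Ifit2 (2.05), Isg15 (1.43) and Oas3 (1.39) at the top. NK cells gave 0.19 (0.053 to 0.33), with 4 of 22 members higher by 2-fold or more against 1.03% of genes. These 4 were Ifi27l2a (2.14), Mx1 (1.39), Rtp4 (1.11) and Ddx58 (1.05). The 72 non-treated NK cells held 459 member UMIs with Ifi27l2a and 458 without it, against 3816 and 3702 in untransduced ACT. The Ifi27l2a ratio therefore rests almost wholly on the untransduced count, and the part of RNA free in the droplets was not tested.

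PD1d/IL-2v/IL-33 ACT was then set against untransduced ACT on day 5. In CD8 T cells the members were lower by a small margin, 2045 against 2282 CPM (-0.16, -0.20 to -0.12). Irf7 stood at 34.5 against 70.8 CPM (-0.86, -1.09 to -0.63), Ifit3 at 10.96 against 27.7 CPM (-0.84, -1.13 to -0.55) and Ifi35 at 42.7 against 83.4 CPM (-0.83, -1.04 to -0.61). Ifit1bl1, Oas1a and Oas3 had the highest ratios, with 0.53 (0.23 to 0.83), 0.50 (0.20 to 0.79) and 0.44 (0.16 to 0.73). No member of 32 passed 2-fold, against 1.73% of 8716 genes higher and 1.41% lower. The median of the members was -0.24 and that of all genes -0.090. The direction of the sum depended on the cell filter, and it was 0.0075 under the cell filter of a later experiment of the study, and 10 instead of 7 of the 32 members were above 0 with TMM scaling.

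The same pair of libraries differed more in the other gates. NK cells held 778 CPM in PD1d/IL-2v/IL-33 and 1589 CPM in untransduced ACT (-1.02, -1.08 to -0.96). Irf7, at 39.2 against 154 CPM, Isg15, at 19.3 against 75.0 CPM, and Rtp4, at 18.2 against 70.4 CPM, were furthest apart, and 8 of 27 members were lower by 2-fold or more, against 2.76% of genes. In myeloid cells the sum was 5654 against 8561 CPM (-0.60, -0.63 to -0.57). There 11 of 35 members were lower by 2-fold or more, against 2.81% of genes, led by Ifit3 (15.3 against 109 CPM), Isg20 (18.1 against 88.9 CPM) and Mx1 (15.3 against 78.9 CPM). CD4 T cells gave -0.55 (-0.60 to -0.49), with 4 of 23 members lower by 2-fold or more (Ifit3, Irf7, Ifit1 and Pydc3) against 5.47% of genes. In the median of the members NK, myeloid and CD4 T cells gave -0.60, -0.61 and -0.48, beside -0.16, 0.083 and -0.17 for all genes.

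On day 12 the same conditions were compared between libraries of 1 processing code, but with only 41 untransduced CD8 T cells. The sum was 1265 against 1513 CPM (-0.26, -0.40 to -0.11), and it was 0.0081 when each cell was thinned to 2000 UMIs. Members were spread to both sides. Isg15 and Isg20 were higher, with 1.23 (0.37 to 2.08) and 1.199 (0.40 to 2.01), followed by Oas3 (0.98, -0.12 to 1.68). Only 6 Isg15 UMIs stand behind the untransduced level. Pydc3 and Pydc4 were lower, with -1.24 (-1.85 to -0.58) and -1.16 (-1.79 to -0.50), followed by Ifit2 (-0.95, -1.78 to -0.11). With 2 of 29 members higher and 2 lower by 2-fold or more, against 5.45% and 2.32% of 7804 genes, the members were near the background in the higher direction. Their median was -0.19 and that of all genes -0.0087. In NK cells the sum was lower (-0.95, -1.14 to -0.75) and in CD4 T cells, of which untransduced ACT had 33, it was higher (0.56, 0.41 to 0.71).

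The single-cytokine products were compared with each other on day 12, in libraries of 1 processing code. PD1d/IL-33 ACT was below PD1d/IL-2v ACT in the CD8 T sum, 1807 against 2163 CPM (-0.26, -0.31 to -0.21). The sum of the 6 marker genes with Fcer1g in this gate moved the same way, with 55.4 against 252 CPM, and its part in the result was not tested. Usp18, at 12.7 against 36.5 CPM (-1.03, -1.37 to -0.67), Ifit1, at 9.54 against 29.0 CPM (-0.996, -1.34 to -0.62), and Ifit3, at 19.1 against 39.5 CPM (-0.77, -1.10 to -0.43), had the lowest ratios. Oas1a (0.79, 0.45 to 1.13), Ifit1bl1 (0.49, 0.14 to 0.84) and Stat2 (0.26, -0.088 to 0.60) had the highest. Of 32 members 1 was lower and 0 were higher by 2-fold or more, against 1.5% and 1.59% of 8200 genes, and 24 were below 0, with a median of -0.19 beside -0.038 for all genes. NK cells (-0.58, -0.74 to -0.42) and CD4 T cells (-0.44, -0.53 to -0.35) had the same direction.

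The mixed product was next compared with PD1d/IL-2v ACT on day 12. In PD1d/IL-2v/IL-33 ACT the CD8 T cells held 1265 CPM against 2163 CPM in PD1d/IL-2v ACT (-0.77, -0.81 to -0.73). Ifit3 stood at 9.46 against 39.5 CPM (-1.35, -1.58 to -1.11), Rtp4 at 22.7 against 69.1 CPM (-1.27, -1.48 to -1.07) and Irf7 at 26.8 against 71.0 CPM (-1.14, -1.34 to -0.94). Pydc4, Pydc3 and Ifi27l2a were also past 2-fold, which made 6 of 33 members lower, against 1.1% of 9083 genes, and 0 higher, against 1.06%. Rsad2, Isg20 and Stat2 had the highest ratios, 0.24 (-0.022 to 0.49), 0.13 (-0.029 to 0.30) and 0.097 (-0.15 to 0.35), all with intervals that included 0. In all, 29 of the 33 members were below 0, with a median of -0.45 beside -0.10 for all genes. The sum of the 6 marker genes with Fcer1g in the CD8 T gate was similar in both libraries, 270.0 and 252 CPM. NK cells gave -0.77 (-0.86 to -0.68), with 6 of 21 members lower by 2-fold or more (Pydc3, Rtp4, Ifi35, Phf11b, Pydc4 and Xaf1) against 2.16% of genes, and myeloid cells -0.34 (-0.39 to -0.29). CD4 T cells had a lower sum (-0.38, -0.45 to -0.31), but 11 of 20 members were above 0 there.

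Against PD1d/IL-33 ACT, the other parent product, PD1d/IL-2v/IL-33 ACT was lower in CD8 T cells as well (1265 and 1807 CPM, -0.51, -0.57 to -0.46). Pydc4 (-1.08, -1.35 to -0.81), Pydc3 (-0.998, -1.27 to -0.72) and Oas1a (-0.91, -1.24 to -0.58) had the lowest ratios, and Cmpk2 (0.37, -0.0018 to 0.65), Oas3 (0.27, -0.066 to 0.61) and Rsad2 (0.23, -0.14 to 0.56) the highest. Pydc4 was the 1 member of 32 lower by 2-fold or more, against 0.512% of 8397 genes, and 0 were higher, against 1.19%. The median was -0.39 beside -0.079 for all genes. In CD4 T cells the sum was not lower (0.061, -0.038 to 0.16), and without Ifi27l2a it was higher (0.36, 0.21 to 0.52). There 10 of 12 members were above 0, with a median of 0.22 beside -0.050 for all genes. NK cells gave -0.19 (-0.36 to -0.023), with a median of -0.16 beside -0.17 for all genes. Myeloid cells, 35 of them in PD1d/IL-33 ACT, gave -0.22 (-0.31 to -0.12). The 2 comparisons with the parent products share the PD1d/IL-2v/IL-33 library, so they do not repeat each other independently. Here the sum of the 6 marker genes with Fcer1g in the CD8 T gate differed between the libraries. It was 270.0 CPM in PD1d/IL-2v/IL-33 and 55.4 CPM in PD1d/IL-33 ACT, and its part in the result was not tested.

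Over time, PD1d/IL-2v/IL-33 ACT had CD8 T cells with fewer member UMIs on day 12 than on day 5, and most of that difference was 1 gene. The sum was 1265 against 2045 CPM (-0.69, -0.73 to -0.65), and without Ifi27l2a the ratio was -0.16 (-0.22 to -0.11). Ifi27l2a itself stood at 341 against 1009.6 CPM (-1.54, -1.61 to -1.47). Rtp4 (-0.79, -1.02 to -0.55) and Oas1a (-0.56, -0.84 to -0.29) came next, whereas Isg20 (0.51, 0.32 to 0.70), Usp18 (0.39, 0.10 to 0.67) and Isg15 (0.21, 0.011 to 0.40) were higher on day 12. Ifi27l2a was the 1 member of 32 lower by 2-fold or more, against 0.282% of 8853 genes, and 0 were higher, against 0.418%. The median of the members (-0.14) lay close to that of all genes (-0.13), which TMM scaling moved to -0.022. NK cells had a lower sum on day 12 (-0.42, -0.50 to -0.33), with a median of -0.41 beside -0.14 for all genes. Myeloid cells gave -0.15 (-0.20 to -0.10), and -0.53 (-0.60 to -0.47) without Ifi27l2a. CD4 T cells gave -0.075 (-0.15 to -0.0026), and 0.10 (-0.0016 to 0.21) without Ifi27l2a.

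In DCs, which reached 20 cells only in this condition, the sum was 1844 CPM on day 12 against 4659 CPM on day 5 (-1.33, -1.49 to -1.18). There 8 of 11 members were lower by 2-fold or more, against 7.82% of the 1573 genes compared, among them Bst2 (358 against 1411 CPM), Stat2 (49.8 against 216 CPM) and Irf7 (63.4 against 246 CPM). Plasmacytoid DCs, gated by Siglech, made up 15 of 36 DCs on day 5 and 1 of 23 on day 12, and their part in the result was not tested. On day 26 they were 10 of 42, and the sum was 2916 CPM.

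From day 12 to day 26 the members of CD8 T cells were higher nearly throughout. The sum was 2363 against 1265 CPM (0.90, 0.86 to 0.93), and 0.93 (0.89 to 0.97) without Ifi27l2a. Ifit3 stood at 72.7 against 9.46 CPM (2.09, 1.89 to 2.27), Rtp4 at 85.1 against 22.7 CPM (1.54, 1.36 to 1.71) and Pydc3 at 84.4 against 23.0 CPM (1.52, 1.34 to 1.69). Pydc4, Irf7, Ifit1, Ifit3b, Zbp1 and Ifit1bl1 followed, so that 9 of 36 members were higher by 2-fold or more, against 1.49% of 9897 genes, and 0 were lower, against 1.62%. Of the 36 members, 34 were above 0. Oas3 (-0.33, -0.52 to -0.14) and Oasl1 (-0.097, -0.28 to 0.070) were the exceptions, with Ddx60 (0.087, -0.13 to 0.29) next. The median of the members was 0.58 and that of all genes 0.12, and with TMM scaling 0.45 and 0.011, with 31 members above 0. NK cells, 78 of them on day 26, differed by a similar amount (0.99, 0.83 to 1.14), whereas CD4 T cells (0.12, 0.050 to 0.18) and myeloid cells (0.080, 0.029 to 0.13) differed less in the sum. Without Ifi27l2a the myeloid ratio was 0.34 (0.27 to 0.40), with 24 of 33 members above 0 and a median of 0.32 beside 0.038 for all genes. The sum of the 6 marker genes with Fcer1g in the CD8 T gate was 42.1 CPM on day 26 and 270.0 on day 12. Its part in the result was not tested.

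**Figure D3:**
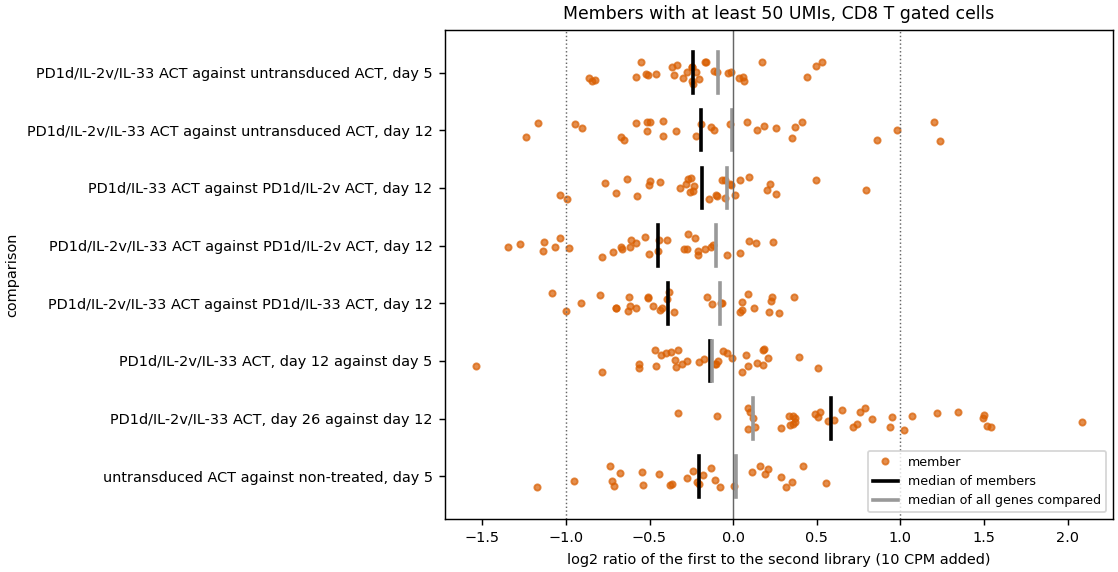
Log2 ratio (10 CPM added) of each member with at least 50 UMIs in CD8 T gated cells, for each of the 8 comparisons; black bars are the median of the members, grey bars the median of all genes compared, and dotted lines mark 2-fold. The members lie furthest to the left in PD1d/IL-2v/IL-33 against PD1d/IL-2v ACT on day 12 (median -0.45) and furthest to the right on day 26 against day 12 (median 0.58).

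The ligands were found in myeloid cells of treated tumors on day 5. Ifnb1, the single interferon beta gene, gave 295 UMIs in 27 of 270 myeloid cells of untransduced ACT on day 5 (134 CPM, 119 to 150.0) and 318 UMIs in 42 of 336 of PD1d/IL-2v/IL-33 ACT on day 5 (95.7 CPM, 85.4 to 107). Non-treated tumors gave 1 UMI in 22 myeloid cells. In the myeloid cells of the 5 later libraries 0 UMIs were counted, among 13, 281, 35, 127 and 248 cells, and the largest of these, PD1d/IL-2v ACT, allows a share of up to 1.07% of cells with a UMI, which is no limit on cells that express the gene. The 13 Ifna genes summed to 293 UMIs in 5 myeloid cells of untransduced ACT on day 5, of which 1 cell held 191, and to 101 UMIs in 15 such cells under PD1d/IL-2v/IL-33 ACT on day 5. Outside the myeloid gate they were rare, and in CD8 T cells 16 UMIs of Ifnb1 and Ifna genes came from 1 cell of PD1d/IL-2v ACT and 1 UMI from 1 cell under PD1d/IL-2v/IL-33 ACT on day 5. In DCs 0 UMIs of Ifnb1 and the Ifna genes were found in all 8 libraries, among 170 cells.

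**Figure D4:**
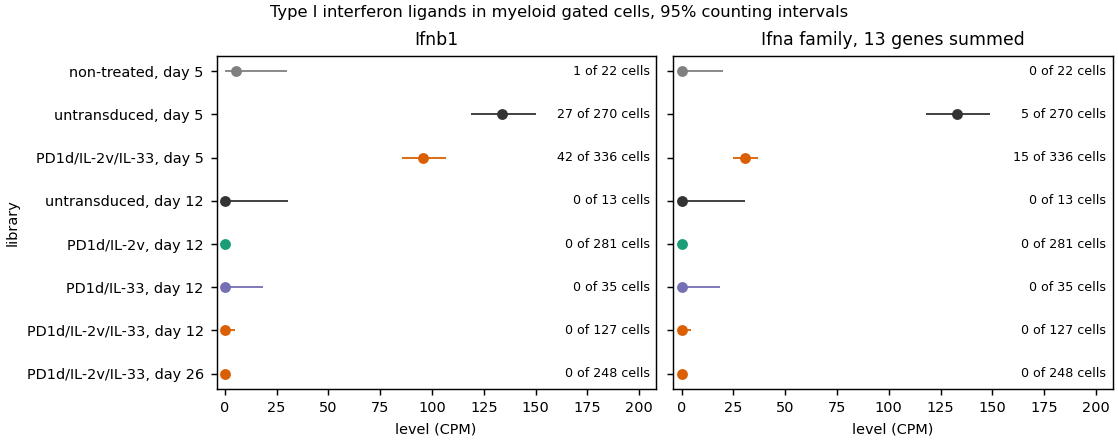
Level (CPM) of Ifnb1 and of 13 summed Ifna genes in myeloid gated cells of each library, with 95% counting intervals and the number of cells with a UMI. Both are above 0 in the 2 day 5 libraries of treated tumors, with 134 and 95.7 CPM of Ifnb1, and of the others non-treated tumors gave 1 UMI of Ifnb1.

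Myeloid cells with a ligand UMI also held more member UMIs. In untransduced ACT on day 5 the 37 members without Ifi27l2a summed to 11746 CPM (11332 to 12170) in the 28 myeloid cells with a UMI of Ifnb1 or an Ifna gene and to 5646 CPM (5541 to 5753) in the 242 without. In PD1d/IL-2v/IL-33 ACT on day 5 the levels were 6484 CPM (6251 to 6723) in 47 cells and 3573 CPM (3504 to 3643) in 289. Median depths were 9234.5 and 7838.5 UMIs in the first library and 9955 and 9970.0 UMIs in the second. Ifng, the type II interferon, was in contrast a lymphocyte gene, and in CD8 T cells stood at 448 CPM in non-treated tumors, 182 and 1251 in the day 5 libraries of untransduced and of PD1d/IL-2v/IL-33 ACT, 52.7 in untransduced, 381 in PD1d/IL-2v, 103 in PD1d/IL-33 and 136 in PD1d/IL-2v/IL-33 ACT on day 12, and 137 in PD1d/IL-2v/IL-33 ACT on day 26. In non-treated tumors 1 cell held 140 of the 197 Ifng UMIs, and without it the level was 132 CPM. The highest library for Ifng, PD1d/IL-2v/IL-33 ACT on day 5, was not the highest in the members. Its 5363 Ifng UMIs lay in 128 of 490 CD8 T cells, with 758 in 1 cell. A link between the Ifng level and the members was not tested.

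Other genes of the pathway were described from lists in CD8 T cells. Of the receptor chains, Ifnar1 stood at 159 CPM in non-treated tumors and 67.4 to 109.8 CPM in the other 7 libraries, and Ifnar2 ranged from 44.3 to 93.8 CPM. Of the kinases, Jak1 ranged from 226 to 356 CPM and Tyk2 from 11.3 to 40.9 CPM. In PD1d/IL-2v/IL-33 against PD1d/IL-2v ACT on day 12, 0 of the 4 receptors, 4 further factors (Irf1, Irf3, Irf5 and Irf8), 6 sensing genes, 2 SOCS inhibitors and 2 ISG15-conjugating enzymes with enough UMIs passed 2-fold in either direction, and of the ligands Ifng was lower (-1.42, -1.52 to -1.31). Of all genes compared, 1.06% were higher and 1.1% lower by 2-fold or more, so a count of 0 in lists this short does not set them apart. On day 26 against day 12, again 0 genes of these lists passed 2-fold, against 1.49% of all genes higher and 1.62% lower. The medians were 0.30 for receptors, 0.33 for factors and -0.031 for sensing genes.

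Genes led by interferon gamma, 19 in the list, were followed beside the members, with the caution that many respond to both types of interferon. Their sum in CD8 T cells was 1944 CPM in non-treated tumors, 1834 and 1440.3 in the day 5 libraries of untransduced and of PD1d/IL-2v/IL-33 ACT, 1803 in untransduced, 1779 in PD1d/IL-2v, 1599 in PD1d/IL-33 and 1528 in PD1d/IL-2v/IL-33 ACT on day 12, and 2088 in PD1d/IL-2v/IL-33 ACT on day 26. The range over the libraries was narrower than that of the members, and the lowest library was PD1d/IL-2v/IL-33 ACT on day 5 and not day 12. In PD1d/IL-2v/IL-33 against PD1d/IL-2v ACT on day 12 their log2 ratio was -0.22 (-0.26 to -0.18), beside -0.77 (-0.81 to -0.73) for the members. On day 12 against day 5 of PD1d/IL-2v/IL-33 ACT it was 0.085 (0.039 to 0.13), and on day 26 against day 12 0.45 (0.42 to 0.48). In that last comparison 0 of the 16 genes with enough UMIs passed 2-fold, against 1.49% of all genes higher and 1.62% lower, and 13 were above 0.

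Within a library, member UMIs were unevenly spread over CD8 T cells. After each cell was thinned to 2000 UMIs, and with Ifi27l2a left out, the median cell held 2 member UMIs in 7 libraries and 1 in PD1d/IL-2v/IL-33 ACT on day 12, where 207 of 726 cells held none. On day 26 268 of 2287 cells held none. The 5% of cells with the most held 25.2% to 40.1% of the member UMIs in the 7 larger libraries, and 18.5% in the 41 cells of untransduced ACT on day 12. Cells with 20 or more member UMIs made up 70 of 2287 on day 26 (3.06%, exact binomial interval 2.39 to 3.85%), 10 of 726 on day 12 of the same condition (1.38%, 0.662 to 2.52%) and 5 of 490 on day 5 (1.02%, 0.332 to 2.37%). The other large libraries, untransduced ACT on day 5 (11 of 500) and PD1d/IL-2v ACT (11 of 566), lay between, and their intervals overlapped those of all 3.

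**Figure D5:**
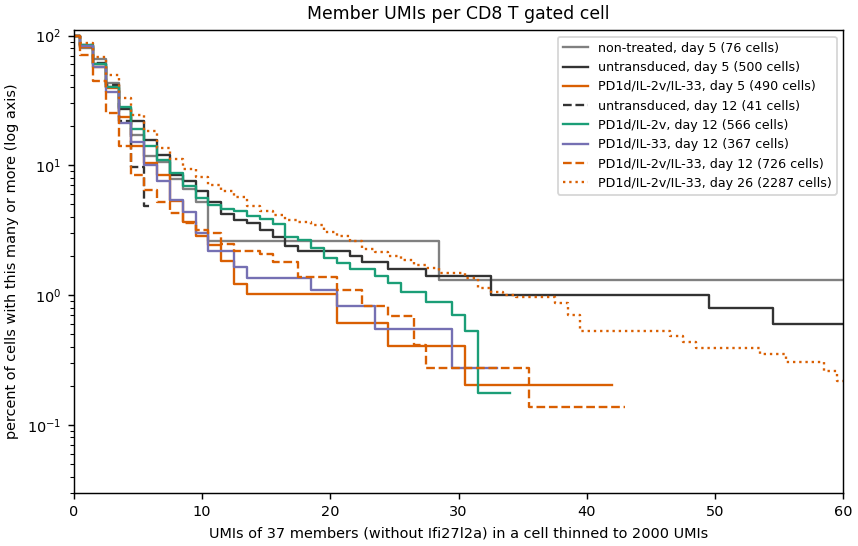
Percent of CD8 T gated cells (log axis) with a given number or more of UMIs from the 37 members other than Ifi27l2a, after thinning to 2000 UMIs a cell; each line is a library and the axis ends at 60 UMIs. The day 26 line of PD1d/IL-2v/IL-33 ACT runs above its day 12 line, and the median cell holds 2 and 1 member UMIs.

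Members were found in the same cells. With Ifi27l2a left out, CD8 T cells with a UMI of Isg15 held more of the 36 other members than cells without. The ratio ran from 2.202 in PD1d/IL-2v/IL-33 ACT on day 5 to 4.76 in the same condition on day 12, over the 6 libraries with 20 such cells. For Ifit3 the ratio was 6.73 in untransduced ACT on day 5, 4.15 in PD1d/IL-2v ACT and 4.46 on day 26. On day 26, Ifit3-positive cells (238) held 6429 CPM of the others and the remaining 2049 cells 1440.2 CPM, with 35 of 36 members higher in the former. How many of all genes were higher in such cells was not counted. In myeloid cells the ratio for Isg15 was smaller, from 1.43 to 3.07 over 5 libraries.

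Shares of CD8 T cells with a UMI followed the levels. Ifit3 was detected, after thinning, in 10.4% (9.18 to 11.7%, 17.7% without thinning) of cells on day 26, in 1.93% (1.06 to 3.21%, 3.44% without thinning) on day 12 of PD1d/IL-2v/IL-33 ACT and in 6.89% (4.95 to 9.30%, 15.4% without thinning) in PD1d/IL-2v ACT. Ifi27l2a was detected in 66.7% (62.4 to 70.9%, 80.4% without thinning) of cells in PD1d/IL-2v/IL-33 ACT on day 5 and in 27.3% (24.1 to 30.7%, 42.7% without thinning) on day 12. The thinned share of Bst2 ranged from 19.1% to 28.4% over the libraries. Because every gated type expresses members, no type could serve as a background free of them, and RNA free in the droplets was not separated. The lowest type for Ifi27l2a, NK cells, held 2.80 to 47.5 CPM against 341 to 1010 CPM in CD8 T cells.

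CD8 T cells were also split by state markers. The summed member level (CPM) was lower in cycling cells, with a UMI of Mki67 or Top2a, than in other cells. This held in all 6 libraries with 20 cells of each kind, by -0.62 to -0.26 on the log2 scale. Cells with 2 or more UMIs of Gzmc to Gzmg, the granzymes of one gene cluster, were lower in all 4 libraries with enough of them, by -1.30 to -0.28, and on day 12 of PD1d/IL-2v/IL-33 ACT 134 such cells held 761 CPM against 1475 CPM in the others. Pdcd1-positive cells were lower in 6 of 7 libraries (-0.50 to -0.15) and higher in non-treated tumors (0.60). That library has 76 CD8 T cells, of which 4 held 40.1% of the thinned member UMIs other than Ifi27l2a, and their part was not tested. Cells with a marker UMI tended to be deeper, with medians of 14723.5 UMIs for the Gzmc to Gzmg cells named above and 7250.5 for the others. A lower level is a smaller share of a cell's UMIs and need not mean fewer member UMIs. Without cycling cells PD1d/IL-2v/IL-33 against PD1d/IL-2v ACT on day 12 gave -0.71.

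Over the 8 libraries, members differed in how closely their CD8 T level followed the sum. On log2(CPM + 10), Pearson's r with the sum, which contains the member, ran from 0.91 for Rtp4 and Ddx58 and 0.86 for Irf7 down to 0.095 for Usp18, 0.089 for Slfn8 and -0.15 for Oas3. Of 584 other genes with at least 50 UMIs in every library, the 10 most like the sum included Sh2d2a (0.93), Arhgdia (0.92), Capza1 (0.91), Cnn2 (0.90), Rac1 (0.89), Actg1 (0.88), Arpc4 (0.85), Msn (0.84) and Myl12a (0.83). None of those named is in the gene lists used here. Sh2d2a, a T cell adaptor, stood at 848 CPM in non-treated tumors, 397 CPM in PD1d/IL-2v/IL-33 ACT on day 12 and 626 CPM on its day 26. These values describe 8 points that share depth and composition within a library, with no test.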

How the data were processed

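The table the authors deposited holds raw UMI counts from Cell Ranger, joined over 8 libraries and not normalized. The submitters' processing notes name bcl2fastq, GRCm38 and Cell Ranger 2.2.0, and the Methods a later Cell Ranger version, so which one made the counts is not settled. Whether reads were subsampled in the aggregation is not given in the sources used here. Barcodes per library are round numbers (400 to 3700). The members and gene lists were chosen with earlier results of these data known.

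A cell passed with 2000 to 40000 UMIs, 500 to 6000 genes, a share of under 10% for 13 mitochondrial genes and one of 5% to 60% for 113 genes named Rpl or Rps. Gates used raw UMIs and a cell that met 2 gates was put in none. T cells had a UMI of Cd3d, Cd3e or Cd3g and one of Cd8a or Cd8b1 without Cd4 (CD8 T), or one of Cd4 without Cd8a and Cd8b1 (CD4 T), NK cells one of Ncr1 or Klrb1c without Cd3 genes, and none of these had Csf1r, Fcgr1, Adgre1 or Cd79a. DCs had 2 UMIs or more of Flt3, Xcr1, Clec9a, Cd209a and Siglech without Fcgr1 and Adgre1, and other myeloid cells 2 or more of Csf1r, Fcgr1, Adgre1 and Cd14, both without Cd3 genes, Ncr1 and Cd79a. In no gate were 2611 cells, and doublets were not called. Counts were summed per library and gate and given as CPM where a gate held at least 20 cells, with exact Poisson intervals. Ratios are on the log2 scale with 10 CPM added to each level, with an interval combined from both, and genes counted as past 2-fold at 1 or more with at least 50 UMIs in both libraries together. The ratio and its interval were tested on simulated Poisson counts. These lack the uneven spread over cells seen here, so the test does not cover that spread. Shares used cells thinned to 2000 UMIs (seed 1) with Clopper-Pearson intervals, and a count of 0 was read as up to 3 counts.

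Members named are the 2 with the most UMIs in each of 8 roles and the 3 highest and 3 lowest per CD8 T comparison, those with under 10 UMIs (none), and the 10 other genes most like the sum; further members, those named in other gates and the split of ligand-positive cells were chosen after their values were seen. Some results, a list of signaling genes among them, are not reported here. Median depth was 4403.5 to 7297 UMIs per cell in the 8 libraries. Python 3.11.15, numpy 2.4.6, scipy 1.17.1, pandas 2.3.3 and matplotlib 3.10.9 were used, and edgeR 4.0.16 (R 4.3.3) for TMM factors. As alternatives the cell filter, gate, scaling, thinning, pseudocount, UMI minimum and the cells and members summed were varied, and the Ifng level without its top cell was added after seeing the data.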

Additional observations from a re-analysis of the deposited data

Results flagged for a closer look

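In 2 comparisons the summed members had opposite directions in different gates of the same libraries. The differences between gates were not tested, and each rests on small libraries. PD1d/IL-2v/IL-33 against untransduced ACT on day 12 gave a log2 ratio of 0.5575 in CD4 T cells, -0.2568 in CD8 T cells and -0.949 in NK cells. Untransduced ACT against non-treated tumors on day 5 gave 1.036 in CD4 T, 0.5592 in myeloid and 0.1917 in NK cells, beside -0.1638 in CD8 T cells. The CD8 T values of both comparisons depended on the processing: that of day 12 was 0.0081 after thinning, and that of day 5 was 0.0174 under the cell filter of a later experiment, -0.0192 after thinning and -0.0016 without the 5% of cells with the highest member share.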

How the results depend on the processing

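The summed log2 ratios of CD8 T cells were recomputed under 10 alternatives. Of the 80 values, 36 stayed within the counting interval, 41 left it with the same direction and 3 reversed. The values that left it follow, where a contrast with untransduced, PD1d/IL-2v or PD1d/IL-33 ACT is that of PD1d/IL-2v/IL-33 ACT, and their cause was not tested. Without a cell filter the ratio was -0.0936 for the day 5 contrast with untransduced ACT. Under the cell filter of a later experiment the ratio was 0.0075 for the day 5 contrast with untransduced ACT, -0.0693 for the day 12 contrast with untransduced ACT, -0.50 for PD1d/IL-33 against PD1d/IL-2v ACT, -0.62 for the contrast with PD1d/IL-2v ACT, -0.12 for the contrast with PD1d/IL-33 ACT, 0.60 for day 26 against day 12 and 0.0174 for untransduced ACT against non-treated tumors. With 2 UMIs of Cd8a and Cd8b1 required the ratio was -0.10 for the day 5 contrast with untransduced ACT and -0.28 for untransduced ACT against non-treated tumors. With TMM factors the ratio was -0.0316 for the day 5 contrast with untransduced ACT, -0.64 for the contrast with PD1d/IL-2v ACT, -0.41 for the contrast with PD1d/IL-33 ACT, -0.53 for day 12 against day 5 and 0.72 for day 26 against day 12. Without ribosomal and mitochondrial genes in the total the ratio was -0.0724 for the day 5 contrast with untransduced ACT, -0.31 for PD1d/IL-33 against PD1d/IL-2v ACT, -0.72 for the contrast with PD1d/IL-2v ACT, -0.40 for the contrast with PD1d/IL-33 ACT, -0.62 for day 12 against day 5 and 0.81 for day 26 against day 12. In cells thinned to 2000 UMIs the ratio was -0.0243 for the day 5 contrast with untransduced ACT, 0.0081 for the day 12 contrast with untransduced ACT, -0.61 for the contrast with PD1d/IL-2v ACT, -0.39 for the contrast with PD1d/IL-33 ACT, -0.80 for day 12 against day 5, 0.79 for day 26 against day 12 and -0.0192 for untransduced ACT against non-treated tumors. Without Ifi27l2a the ratio was -0.32 for the day 5 contrast with untransduced ACT, -0.65 for the contrast with PD1d/IL-2v ACT, -0.38 for the contrast with PD1d/IL-33 ACT, -0.16 for day 12 against day 5 and -0.38 for untransduced ACT against non-treated tumors. Without cycling cells the ratio was -0.0565 for the day 5 contrast with untransduced ACT, -0.71 for the contrast with PD1d/IL-2v ACT, -0.44 for the contrast with PD1d/IL-33 ACT, -0.79 for day 12 against day 5 and -0.0718 for untransduced ACT against non-treated tumors. Without the 5% of cells with the highest member share the ratio was -0.0302 for the day 5 contrast with untransduced ACT, -0.14 for PD1d/IL-33 against PD1d/IL-2v ACT, -0.73 for the contrast with PD1d/IL-2v ACT, -0.59 for the contrast with PD1d/IL-33 ACT, -0.84 for day 12 against day 5 and -0.0016 for untransduced ACT against non-treated tumors. The 3 reversals touched the contrasts with untransduced ACT and of untransduced ACT with non-treated tumors, and the other 5 comparisons kept their direction under all 10. Of 48 recomputed counts of members past 2-fold, 10 moved by more than 1.5 times, all with 1 CPM in place of 10 CPM added, and on day 26 against day 12 the count was then 15. No paired analysis was possible because each condition and day has 1 library and the labels give no replicate numbers, and no library could be left out. Depth limits the non-treated and untransduced day 12 libraries, where 76 and 41 CD8 T cells gave 1125 and 402 member UMIs.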

Other observations

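Socs1 and Socs3, which restrain JAK-STAT signaling, varied in myeloid cells over the libraries with at least 20 such cells. Socs1 stood at 482 CPM in PD1d/IL-2v/IL-33 ACT on day 5 and between 21.4 and 328 CPM in the others. Socs3 stood at 1583 CPM in untransduced ACT on day 5 and between 379 and 1017 CPM in the others. In the same gate the genes led by interferon gamma summed to 9397 CPM (untransduced ACT) and 9394 CPM (PD1d/IL-2v/IL-33 ACT) on day 5, whereas the members summed to 8561 and 5654 CPM. In the later libraries with at least 20 myeloid cells the former sum lay between 3909 and 5516 CPM and the latter between 5097 and 6471 CPM. Cells that fell in no gate held 21 UMIs of Ifnb1 in 2 cells of untransduced ACT on day 5 and 32 UMIs in 9 such cells with PD1d/IL-2v/IL-33 ACT.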
